A study of Mus musculus with 14 samples.

Results

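Microglia sorted from the retinas of mice carrying the APOE E3/E3 genotype were compared after microbead injection and after sham injection. The APOE3 microbead group has 3 libraries and the APOE3 sham group has 4, so 7 of the 14 libraries of the series enter the comparison, and the other 7 come from APOE E4/E4 retinas given the same injections. The 7 were chosen by their labels alone, and the comparison runs over all genes with enough reads to test. Microbead injection is a mouse model of glaucoma in which beads lodged in the front of the eye hinder the outflow of fluid and raise the pressure inside it. Every mouse was 12 weeks old, per the labels. How long after the injection the retinas were taken, the sex of the mice and the origin of the APOE alleles are not given in the sources used here. Cells from each retina were sorted as CD11b+, Ly6c- and Fcrls+, a gate meant to keep resident microglia and to leave out myeloid cells recruited from the blood. Between 100 and 600 cells were collected per retina and lysed at 100 to 300 cells per sample. The labels do not say that each retina came from another animal, so the p-values measure the spread between these libraries.

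Microglia are the resident macrophages of the retina. In the resting state they carry a set of surface receptors and transcription factors known as the homeostatic signature, which depends on TGF-beta signalling and includes the purine receptor P2ry12. After nerve injury or during neurodegeneration they lower that signature and raise genes of phagocytosis, lysosomal digestion and lipid handling, which in the mouse brain has been called the disease-associated or neurodegenerative state. Glaucoma kills retinal ganglion cells, and microglia near dying ganglion cells are among the cells that take up the debris.

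The libraries held between 619243 and 727264 estimated reads in the microbead group and between 552441 and 725741 in the sham group. Transcripts of 12 satellite-type genes took 38.6% to 65.3% of the reads in the microbead libraries and 39.1% to 62.1% in the sham libraries, which left 226122 to 446728 reads for all other genes in the microbead libraries and 237785 to 392929 in the sham libraries. A gene with 3 reads stood at about 3.60 to 6.10 CPM, that is reads scaled to a common library size, in a sham library, and values below that are counting noise. Ly6c2, the gene for the antigen that the gate selected against, had 1, 2 and 1 reads in the microbead libraries and 0, 3, 0 and 3 in the sham libraries. Fcrls, an antigen selected for, averaged 220.4 ± 52.2 CPM in the microbead libraries (SD, n = 3). In the sham libraries it averaged 221.5 ± 59.9 CPM (SD, n = 4). For neither Ly6c2 nor Fcrls did the groups separate. Itgam, the gene for CD11b, which was also selected for, had 344, 398 and 378 CPM in the microbead libraries. In the sham libraries it had 216, 216, 144 and 315 CPM, below every microbead library, and its rise passed the threshold given below. Apoe itself had 7, 11 and 9 reads in the microbead libraries and 0, 1, 4 and 2 in the sham libraries, too few to be tested. The submitters name the mouse build mm10 and the origin of the APOE alleles is not given, so these reads may not reflect the APOE E3 allele. These are bulk samples, in which fewer cells of one type and less RNA per cell cannot be told apart.

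Of 7605 genes tested, 392 (5.15%) differed between microbead and sham at an adjusted p under 0.05, 269 higher (3.54%) and 123 lower (1.62%) in the microbead group. They were found by edgeR's quasi-likelihood test, with p-values adjusted by Benjamini and Hochberg's method across the 7605 genes, and a gene past it is here said to have risen or fallen, or to be called. The genes that rose had a median log2 fold change of 1.23 and those that fell one of -1.20, against -0.02 over all genes tested. Among those called, 186 rose and 85 fell at least 2-fold, 68 rose and 15 fell at least 4-fold, and 34 rose and 4 fell at least 8-fold. Spp1, Gpnmb, Vim and C4b were among the genes with the largest rises, and the fall with the lowest p was that of Hpgd, the enzyme that inactivates prostaglandins (log2 fold change -3.97 ± 0.38, adjusted p = 1.13e-07). The log2 fold change of Spp1, 7.58, was 8.71 without sham 4.

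**Figure D1:**
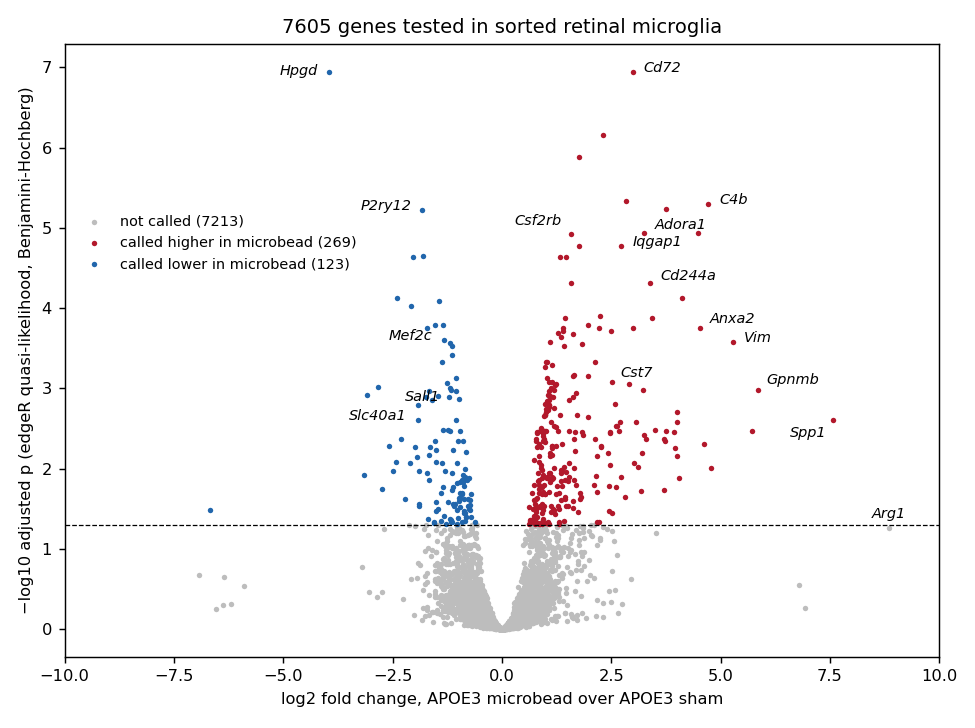
Each point is one of the 7605 genes tested, with the log2 fold change of APOE3 microbead over APOE3 sham on the horizontal axis and the negative log10 of the adjusted p on the vertical axis, and the dashed line marks an adjusted p of 0.05. Red marks the 269 genes called higher and blue the 123 called lower in the microbead group, and Arg1 lies just below the line.

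The 3 microbead libraries did not respond alike. Over the 269 genes that rose, the median log2 ratio of a library to the sham mean was 1.28, 1.34 and 0.97 in microbead 1, 2 and 3, and over the 123 that fell it was -1.47, -1.17 and -0.98. Those values restate the comparison that chose the genes. Genes known from blood monocytes moved with them. The 24 monocyte markers searched for summed to 1699, 928 and 344 CPM in microbead 1, 2 and 3, against 107, 127, 134 and 84.0 CPM in the sham libraries. Fn1, which encodes fibronectin, a matrix protein made by monocytes and by macrophages, outweighed the other 23 together in microbead 1 and 3 but not in microbead 2 or in any sham library, with 1319, 335 and 237 CPM in the microbead libraries and 13.7, 14.1, 24.4 and 36.0 CPM in the sham libraries. Its log2 fold change of 4.77 ± 0.88 (SE, adjusted p = 0.00976) was 3.64 without microbead 1. The other 23 monocyte markers summed to 380, 592 and 107 CPM in the microbead libraries and to 92.7, 113, 110 and 48.0 CPM in the sham libraries, so microbead 3 lay inside the sham range and microbead 1 and 2 lay above it. Ccr2, the chemokine receptor that brings monocytes into tissue, had 37, 104 and 9 reads in the microbead libraries and 11, 6, 7 and 4 in the sham libraries. Chil3, a lectin of Ly6c+ monocytes, had 144 reads in microbead 2 and at most 2 in any other APOE3 library, and S100a8 and S100a9, abundant in classical monocytes and neutrophils, had 3 reads together in the 7 libraries.

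**Figure D2:**
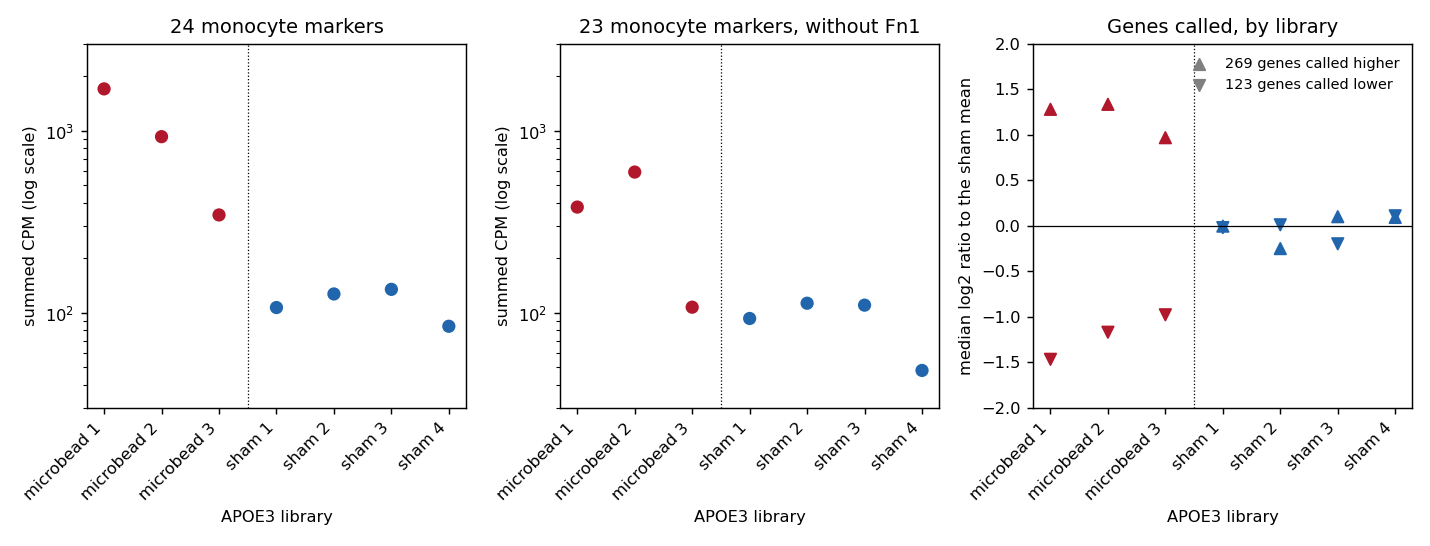
The left panel gives the summed CPM of 24 monocyte markers in each APOE3 library, the middle panel the same without Fn1, both on a log axis, and the right panel the median log2 ratio to the sham mean of the genes called higher (upward triangles) and lower (downward triangles). Microbead libraries are red and stand left of the blue sham libraries. Microbead 3 has 344 CPM with Fn1, against 84.0 to 134 CPM in sham, and 107 CPM without it, against 48.0 to 113 CPM. The right panel restates the comparison that chose the genes, and microbead 3 lies at 0.97 and -0.98 there.

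How far the calls rest on single libraries was measured by leaving each one out. Leaving out 1 of the 7 APOE3 libraries gave between 225 calls (without microbead 2) and 478 (without microbead 3), and 173 genes were called in all 7 of these fits, 128 higher and 45 lower. With microbead 1 and 2 both left out, 1 microbead library is set against 4 sham libraries and is assumed to vary like the other groups. That fit called 37 genes, 33 of them among the 392. Of the 392, 390 kept their direction in it, with medians of 0.99 for the genes that rose and -0.99 for those that fell, though microbead 3 also belongs to the fit that chose them. In a fit that took the monocyte markers as a covariate, 4 genes were called, 3 of them among the 392. In APOE3 every microbead library lay above every sham library in that covariate, so its part and that of the injection cannot be told apart in this fit. Genes said below to have risen or fallen kept their call in all 7 fits without 1 APOE3 library unless the loss is stated. Counts of genes called in a list are to be read against 3.54% higher and 1.62% lower over all genes tested.

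Part of the homeostatic signature fell. Of 47 homeostatic genes tested, 21 fell and none rose, with a median log2 fold change of -0.79, and the median by library was -1.24, -0.76 and -0.44 in microbead 1, 2 and 3. Leaving out 1 library gave between 14 (without microbead 1) and 25 genes lower. In the fit with the monocyte covariate none was called and the list's median was -0.04. Cx3cr1, the receptor for the neuronal chemokine fractalkine, had 817, 1361 and 1455 CPM in the microbead libraries, against 2492, 2546, 2053 and 3017 CPM in the sham libraries (log2 fold change -1.06 ± 0.20, adjusted p = 0.00109). Siglech, a sialic acid receptor of microglia and plasmacytoid dendritic cells, had 299, 284 and 490 CPM in the microbead libraries and 881, 763, 705 and 887 CPM in the sham libraries (-1.18 ± 0.19, adjusted p = 0.000271). Neither pair of groups overlapped. The other 15 dendritic cell markers summed to 183, 385 and 185 CPM in the microbead libraries and to 177, 170, 185 and 233 CPM in the sham libraries, which overlap. Selplg, the selectin ligand PSGL-1, fell by 1.14 ± 0.19 in log2 units (adjusted p = 0.000379) and Cst3, the secreted protease inhibitor cystatin C, by 1.16 ± 0.22 (adjusted p = 0.00105). P2ry12 was at 168, 212 and 383 CPM in the microbead libraries and between 789 and 1064 CPM in sham, lowest in microbead 1 and highest in microbead 3, the order that the list's median also followed.

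Csf1r, the receptor for the survival factor CSF1, had 1487, 2605 and 2521 CPM in the microbead libraries and 3515, 3667, 2640 and 4275 CPM in the sham libraries, a log2 fold change of -0.68 ± 0.21 that missed the threshold (adjusted p = 0.0623). Tgfbr1, a receptor for TGF-beta, changed by -0.68 ± 0.21 (adjusted p = 0.0507). None of 20 tested genes of the TGF-beta pathway was called by edgeR, with a median of -0.40. Over all genes tested 5.15% were called, and 0 of 20 is near that share. Trem2, the lipid and debris receptor of microglia, had 439, 511 and 656 CPM in the microbead libraries and 697, 568, 510 and 694 CPM in the sham libraries, which overlap (-0.21 ± 0.18, adjusted p = 0.709).

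Among transcription factors that define myeloid and microglial identity, 5 of 48 tested fell (10.4%) and 1 rose (2.08%), and the list's median was -0.07. Over all genes tested 1.62% fell and 3.54% rose. Mef2c, a regulator of the microglial resting state on chromosome 13 (83504034 to 83667080, GRCm38), had 56.6, 82.4 and 87.4 CPM in the microbead libraries, against 211, 179, 165 and 212 CPM in the sham libraries (-1.33 ± 0.22, adjusted p = 0.000251). Sall1, which in the brain is largely restricted to microglia among macrophages and lies on chromosome 8 (89027235 to 89044162), had 106, 99.1 and 92.7 CPM in the microbead libraries and 280, 225, 171 and 235 CPM in the sham libraries (-1.20 ± 0.22, adjusted p = 0.000994). The 3 microbead values of Sall1 lay close together, below every sham library. Etv5, an ETS family factor, had 15.8, 41.2 and 35.7 CPM in the microbead libraries and 84.2, 107, 108 and 94.8 CPM in the sham libraries (-1.60 ± 0.31, adjusted p = 0.00141). Lyl1 and Maf were the other 2 that fell, each not called in several of the fits without 1 library. Lyl1 lost its call without microbead 1 (adjusted p = 0.123) or microbead 2 (adjusted p = 0.0626), and Maf lost it without sham 1, sham 2 or any microbead library (adjusted p between 0.0522 and 0.113). Bhlhe40, a repressor induced by lipid loading and inflammatory signals in macrophages, was the factor that rose, with 33.9, 26.7 and 39.2 CPM in the microbead libraries and 3.44, 0, 0 and 4.80 CPM in the sham libraries (3.71 ± 0.81, adjusted p = 0.00428, and 4.54 without sham 4).

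Most genes of the disease-associated signature rose. Of 42 genes of that state tested, 27 rose and 1 fell, with a median of 1.34, and between 20 (without microbead 2) and 25 rose with 1 library left out. By library the median was 1.50, 1.24 and 0.87 in microbead 1, 2 and 3, so it too was smallest in microbead 3, but with microbead 1 and 2 left out 8 of these genes were still called higher. Cst7, which encodes the cathepsin inhibitor cystatin F and marks this state in mouse brain, ran the other way. It had 36.2, 57.9 and 90.9 CPM in microbead 1, 2 and 3 and 13.7, 8.79, 16.3 and 6.0 CPM in the sham libraries (2.51 ± 0.45, adjusted p = 0.000839), and with Cd72 and C4b it was called in every alternative fit that gave it a value. Gpnmb, a glycoprotein of lipid-laden macrophages on chromosome 6 (49036546 to 49070929), had 380, 480 and 232 CPM in the microbead libraries and 15.5, 0, 8.13 and 2.40 CPM in the sham libraries (5.84 ± 0.76, adjusted p = 0.00105, and 6.73 without sham 1). Cd52, a small glycoprotein of immune cells, had 186, 197 and 132 CPM in the microbead libraries and 67.0, 35.1, 69.1 and 51.6 CPM in the sham libraries (1.63 ± 0.26, adjusted p = 0.000213). The exception that fell was Cadm1, an adhesion molecule, with 9.05, 15.6 and 17.8 CPM in the microbead libraries and 56.7, 36.9, 40.7 and 85.2 CPM in the sham libraries (-1.93 ± 0.38, adjusted p = 0.00161).

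Not every gene of that state moved. Clec7a, the beta-glucan receptor dectin-1 and one of its usual markers, had 65.6, 101 and 49.9 CPM in the microbead libraries and 51.5, 51.0, 48.8 and 62.4 CPM in the sham libraries (0.45 ± 0.28, adjusted p = 0.514). Its groups overlap. Lyz2, the lysozyme of macrophages and monocytes, rose with a wide spread, at 3960, 6077 and 1013 CPM in the microbead libraries and 326, 202, 248 and 310 CPM in the sham libraries (3.76 ± 0.58, adjusted p = 0.00345). It was lowest in microbead 3 and above every sham library there. The part of monocyte RNA in the rise of Lyz2 was not tested.

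**Figure D3:**
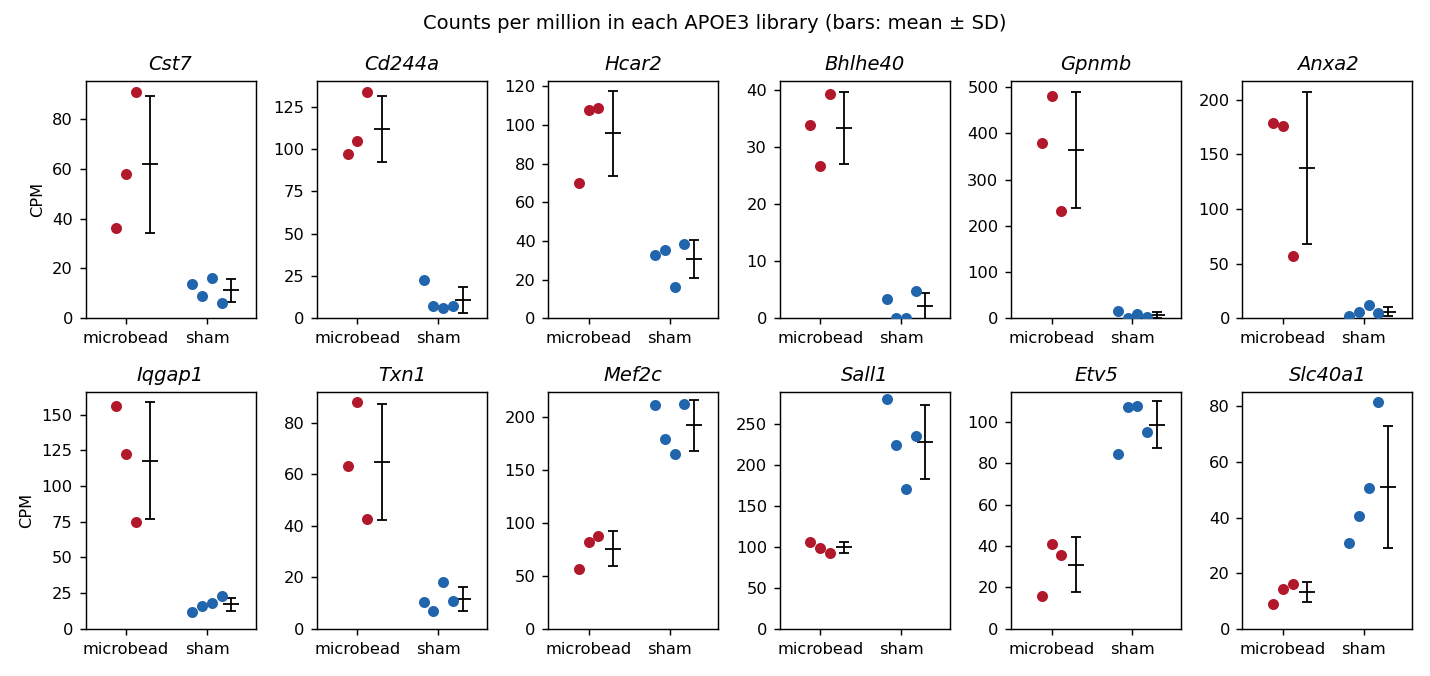
CPM of 12 genes in each APOE3 library, with the 3 microbead libraries (red, in the order 1 to 3) left of the 4 sham libraries (blue, 1 to 4) and black bars for the mean and SD of each group, every axis starting at 0. All 12 were picked from the genes called, so the distance between their groups follows in part from that choice. Among the microbead libraries, Cst7, Cd244a and Bhlhe40 are highest in microbead 3 while Gpnmb, Anxa2, Iqgap1 and Txn1 are lowest there.

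Surface receptors changed in both directions. Of 34 inhibitory and paired immune receptors tested, 6 rose and 3 fell, and of 30 homeostatic surface and G protein-coupled receptors 4 rose and 5 fell. Cd244a, a SLAM family receptor better known from natural killer cells, had 97.3, 105 and 134 CPM in the microbead libraries, against 22.3, 7.03, 6.10 and 7.20 CPM in the sham libraries (3.38 ± 0.44, adjusted p = 4.9e-05, and 3.98 without sham 1). Hcar2, the receptor for hydroxybutyrate and niacin, had 70.2, 108 and 109 CPM in the microbead libraries and 32.6, 35.1, 16.3 and 38.4 CPM in the sham libraries (1.62 ± 0.31, adjusted p = 0.0013). Csf2rb, the shared signalling subunit of the GM-CSF and interleukin-3 receptors, had 253, 263 and 198 CPM in the microbead libraries and 73.8, 86.1, 81.3 and 79.2 CPM in the sham libraries (1.57 ± 0.20, adjusted p = 1.18e-05). Fcgr4, an activating receptor for immunoglobulin G, rose by 2.23 ± 0.35 in log2 units (adjusted p = 0.000178). Ms4a7, a gene of border-associated and monocyte-derived macrophages, had 56.6, 95.8 and 64.2 CPM in the microbead libraries and 13.7, 12.3, 16.3 and 18 CPM in the sham libraries (2.25 ± 0.34, adjusted p = 0.000127). Mrc1, the mannose receptor of border-associated macrophages, had 17, 53 and 1 reads in the microbead libraries and 12, 11, 5 and 20 in the sham libraries, and that list summed to 505, 621 and 321 CPM in the microbead libraries against 355 to 436 CPM in sham. The part of these cells in the rise of Ms4a7 was not tested.

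Genes of lysosomal digestion rose in part. Among 26 cathepsins, proteases and their inhibitors, 9 rose and 3 fell, and between 4 (without sham 2, microbead 1 or microbead 2) and 7 rose with 1 library left out. Ctsb, the cysteine protease cathepsin B, had 2390, 2984 and 2414 CPM in the microbead libraries and 1185, 1160, 1283 and 1541 CPM in the sham libraries (1.01 ± 0.17, adjusted p = 0.000474). Ctsh, an aminopeptidase, had 640, 698 and 706 CPM in the microbead libraries and 381, 378, 413 and 426 CPM in the sham libraries (0.77 ± 0.17, adjusted p = 0.00458). These 2 proteases differed little among the 3 microbead libraries. Of 44 lysosomal membrane proteins and lipid or glycan enzymes, 7 rose and 3 fell. Gm2a, the activator protein for ganglioside breakdown, rose by 1.13 ± 0.21 in log2 units (adjusted p = 0.000982), whereas Arsb, an arylsulfatase that degrades glycosaminoglycans, fell by 1.05 ± 0.21 (adjusted p = 0.00251). Pld3, an endolysosomal exonuclease, had 188, 316 and 203 CPM in the microbead libraries and 110, 73.8, 54.9 and 115 CPM in the sham libraries (1.41 ± 0.23, adjusted p = 0.0003). Rab32, a small GTPase of lysosome-related organelles, rose by 1.66 ± 0.35 (adjusted p = 0.00348). Of 26 autophagy genes none was called by edgeR, which is near the 5.15% called over all genes tested.

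Iron and redox genes changed as groups of few members. Of 19 genes of iron and heme handling tested, 5 rose and 1 fell, and the count that rose was 2 without microbead 2 and 3 without sham 2 or microbead 1. Both ferritin subunits rose. Ftl1, the light chain, had 2163, 2518 and 1535 CPM in the microbead libraries and 785, 682, 911 and 936 CPM in the sham libraries (1.32 ± 0.18, adjusted p = 2.29e-05), and Fth1, the heavy chain, rose by 1.03 ± 0.18 (adjusted p = 0.000474). Slc40a1, the exporter ferroportin on chromosome 1 (45908068 to 45926523), fell, with 9.05, 14.5 and 16.1 CPM in the microbead libraries and 30.9, 40.4, 50.8 and 81.6 CPM in the sham libraries (-1.92 ± 0.39, adjusted p = 0.00251). In all 3 microbead libraries both ferritins lay above, and ferroportin below, every sham library. Of 25 redox genes 5 rose and 1 fell. Txn1, thioredoxin, had 63.4, 88.0 and 42.8 CPM in the microbead libraries and 10.3, 7.03, 18.3 and 10.8 CPM in the sham libraries (2.50 ± 0.40, adjusted p = 0.000195), and Prdx1, a peroxidase that thioredoxin reduces, rose by 1.23 ± 0.22 (adjusted p = 0.000873). Txnip, the thioredoxin inhibitor, fell by 0.91 ± 0.23 (adjusted p = 0.0139), a call lost without microbead 1 (adjusted p = 0.105).

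Of 20 glycolytic genes tested 9 rose and none fell, with a median of 0.76 and 5 members below 0, and the median by library was 0.46, 0.85 and 0.76 in microbead 1, 2 and 3. The list's median was 0.75 without microbead 1 and 2, and 0.76 in the fit with the monocyte covariate, although 0 of its members were then called and 5 were called without microbead 2 or without sham 2. Tpi1, triosephosphate isomerase, had 154, 153 and 177 CPM in the microbead libraries and 65.3, 58.0, 69.1 and 54.0 CPM in the sham libraries (1.39 ± 0.22, adjusted p = 0.000178). Aldoa, aldolase A, had 317, 373 and 380 CPM in the microbead libraries and 175, 144, 179 and 171 CPM in the sham libraries (1.09 ± 0.21, adjusted p = 0.00124). Hexose carriers split. Slc2a6, a lysosomal hexose transporter induced in inflammatory macrophages, had 83.7, 90.2 and 76.7 CPM in the microbead libraries and 25.8, 40.4, 26.4 and 22.8 CPM in the sham libraries (1.54 ± 0.30, adjusted p = 0.00139), whereas the fructose carrier Slc2a5 fell by 1.72 ± 0.27 (adjusted p = 0.000178), a log2 fold change that was -2.32 without microbead 3. Of 71 nuclear genes of the respiratory chain 3 rose, while 69 lay above 0, with a median of 0.50 and library medians of 0.50, 0.75 and 0.17 in microbead 1, 2 and 3. Of 33 genes of the pentose phosphate, citric acid and one-carbon pathways 1 rose (3.03%) and 1 fell (3.03%), and none of 15 sterol synthesis genes was called. Over all genes tested 3.54% rose and 1.62% fell. The counts of these 2 lists and of the respiratory chain (4.2% higher) lie near those shares.

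Most cytosolic ribosomal protein genes rose. Of 80 tested, 57 rose and none fell, with a median of 0.91, and the median by library was 1.03, 0.92 and 0.75 in the microbead libraries and between -0.30 and 0.14 in the sham libraries. Between 38 (without microbead 2) and 55 rose with 1 library left out. Scaling by library totals, which keep the satellite reads, left 7 called with a median of 0.89, and none was called without microbead 1 and 2, where the median was 0.75. Rpl23, of the large subunit, was among the genes that rose with the least spread. It had 215, 214 and 207 CPM in the microbead libraries and 106, 65.0, 130 and 79.2 CPM in the sham libraries (1.16 ± 0.22, adjusted p = 0.0013). Mitochondrial ribosomal proteins did not share this, with 0 of 51 called and a median of 0.09. Many ribosomal protein genes have near-identical pseudogenes, between which reads may be split.

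**Figure D4:**
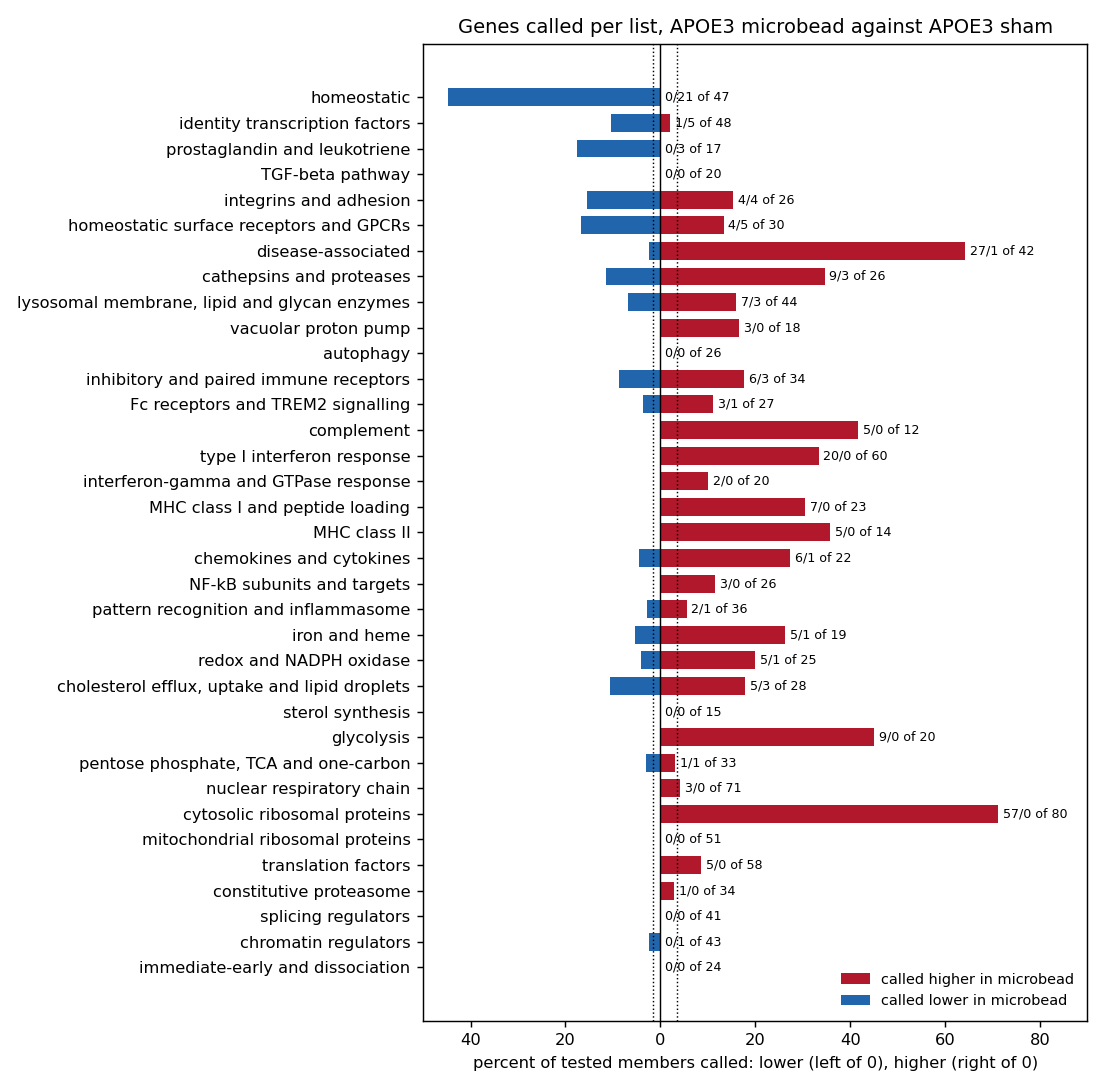
For each of 35 gene lists, red bars to the right give the percentage of tested members called higher and blue bars to the left the percentage called lower in APOE3 microbead against APOE3 sham, with the counts written as higher/lower of tested. Dotted lines mark the 3.54% and 1.62% called higher and lower over all 7605 genes. The cytosolic ribosomal (57 of 80) and disease-associated (27 of 42) lists reach furthest to the right, and the homeostatic list (21 of 47) reaches furthest to the left.

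Of 53 actin and motility genes tested, 6 rose and 1 fell, with a median of 0.23, and 11 rose without microbead 3. Iqgap1, an actin scaffold protein on chromosome 7 (80711583 to 80825974), had 156, 122 and 74.9 CPM in the microbead libraries, against 12.0, 15.8, 18.3 and 22.8 CPM in the sham libraries (2.73 ± 0.36, adjusted p = 1.67e-05). Vim, the intermediate filament vimentin, had 143, 157 and 49.9 CPM in the microbead libraries and 0, 3.51, 2.03 and 4.80 CPM in the sham libraries (5.29 ± 0.71, adjusted p = 0.000266). Anxa2, a calcium-dependent membrane protein, had 179, 176 and 57.0 CPM in the microbead libraries and 1.72, 5.27, 12.2 and 4.80 CPM in the sham libraries (4.54 ± 0.59, adjusted p = 0.000178). All 3 were lowest in microbead 3 and still at least 3 times the highest sham value there. Vim and Anxa2 are also abundant in monocytes and macroglia. The 16 macroglial markers other than Vim summed to 197, 215 and 298 CPM in the microbead libraries and to 215, 221, 244 and 191 CPM in the sham libraries. Of 5 of the markers tested, 4 lay above 0 with a median of 1.21 over the 5, and Vim and Cd44 rose, Cd44 without a call when microbead 1 was left out (adjusted p = 0.0633). Gfap had 0 reads in the microbead libraries and 1 in the sham libraries, and Clu had 1 read in the microbead libraries and 0 in the sham libraries. Dbi, a binding protein of acyl-CoA, had 38.5, 47.9 and 23.2 CPM in the microbead libraries and 22.3, 21.1, 16.3 and 6.0 CPM in the sham libraries (1.21 ± 0.45, adjusted p = 0.148). Glul, glutamine synthetase, had 33.9, 78.0 and 127 CPM in the microbead libraries and 116 to 173 CPM in the sham libraries. The part of macroglial RNA in these rises was not tested.

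Part of the type I interferon response rose. Interferons signal through STAT family factors to a DNA element whose core is repeated GAAA, and the products of the induced genes hinder viruses and mark inflammatory states of microglia. Of 60 such genes tested 20 rose and none fell, with a median of 1.22, but 8 rose without microbead 2, 10 without sham 2 and 29 without microbead 3, and 1 without microbead 1 and 2. Lgals3bp, a secreted scavenger receptor protein, had 448, 591 and 451 CPM in the microbead libraries and 144, 75.6, 108 and 124 CPM in the sham libraries (2.14 ± 0.32, adjusted p = 0.000474). Ifi207, a nucleic acid sensor of the PYHIN family, had 56.6, 91.3 and 58.8 CPM in the microbead libraries and 6.87, 0, 6.10 and 10.8 CPM in the sham libraries (3.42 ± 0.51, adjusted p = 0.000131). Others differed widely among the microbead libraries. Ifitm2, a membrane protein that blocks viral entry, had 54.3, 117 and 16.1 CPM in microbead 1, 2 and 3 and 0, 8.79, 0 and 6.0 CPM in the sham libraries (3.95 ± 0.78, adjusted p = 0.00551, with 4.55 without sham 2 and 3.08 without microbead 2). Ifitm3, of the same family, had 192, 258 and 67.8 CPM in the microbead libraries and 13.7, 7.03, 36.6 and 15.6 CPM in the sham libraries (3.29 ± 0.58, adjusted p = 0.00428). Ifi213, another PYHIN gene, rose by 2.43 ± 0.52 (adjusted p = 0.00647).

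The promoter windows of 4 of these genes are shown because each holds the interferon element core GAAANNGAA, in which N is any base. They are the 4 with the smallest p among the interferon genes that rose and hold it. Each runs from 150 bases before to 30 bases after the RefSeq start, 5′ to 3′ on the gene's strand in build GRCm38.p6, with the core in capitals. All 4 genes lie on the minus strand, at chr1:173741780-173741959 (Ifi207), chr7:141010715-141010894 (Ifitm3), chr7:140955932-140956111 (Ifitm2) and chr1:173599243-173599422 (Ifi213).
Ifi207: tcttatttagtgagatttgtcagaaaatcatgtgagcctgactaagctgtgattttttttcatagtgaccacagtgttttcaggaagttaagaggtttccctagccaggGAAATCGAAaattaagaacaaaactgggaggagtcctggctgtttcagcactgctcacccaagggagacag
Ifitm3: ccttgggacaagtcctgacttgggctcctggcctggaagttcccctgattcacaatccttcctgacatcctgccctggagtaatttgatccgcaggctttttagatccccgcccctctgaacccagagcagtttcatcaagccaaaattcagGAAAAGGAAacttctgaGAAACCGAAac
Ifitm2: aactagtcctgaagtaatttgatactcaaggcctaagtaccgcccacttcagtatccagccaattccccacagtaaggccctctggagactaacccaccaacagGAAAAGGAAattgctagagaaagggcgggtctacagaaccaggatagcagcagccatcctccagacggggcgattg
Ifi213: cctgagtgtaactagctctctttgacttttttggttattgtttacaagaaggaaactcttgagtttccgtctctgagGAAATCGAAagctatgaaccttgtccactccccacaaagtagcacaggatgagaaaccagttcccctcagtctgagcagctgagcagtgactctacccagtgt
The core begins 41, 46 and 73 bases before the start in Ifi207, Ifitm2 and Ifi213, and Ifitm3 holds 2 copies just after its start. RefSeq windows of 250 bases before to 50 after the start were read on both strands. The core was held by 8 of the 15 interferon genes that rose and have a window (53.3%). Members of that list that did not rise were not counted apart. The share therefore cannot tell membership of an interferon list from a rise after microbeads. Among all genes that rose the share was 22.2% (45 of 203), among genes that fell 7.61% (7 of 92), and among all genes tested 9.24% (546 of 5908). Ribosomal protein genes that rose also held it more often than that, in 10 of 41 (24.4%), 8 of them in its reverse complement TTCNNTTTC on the gene's strand. A second motif, the PU.1 core GAGGAAGT, was searched for in the same windows. It was held by 4.4% of the genes that rose (9 of 203) and 4.4% of all genes tested (262 of 5908). Of the genes that fell, 9.8% held it (9 of 92). A match describes the letters of a window and is not a binding site.

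Among antigen presentation genes the median of both lists was highest in microbead 2, at 0.86 for class I and 0.89 for class II. Of 23 genes of the class I pathway 7 rose, and 2 were called without microbead 2. Of 14 class II genes 5 rose, and 4 were called without that library. Without microbead 1 and 2, 1 class I gene and 0 class II genes were called by edgeR, with medians of 0.31 for class I and 0.29 for class II. H2-Eb1, a class II beta chain, had 534, 1188 and 205 CPM in the microbead libraries and 36.1, 49.2, 108 and 103 CPM in the sham libraries (3.12 ± 0.58, adjusted p = 0.00949, and 2.30 without microbead 2). Cd74, the chaperone of class II molecules, had 944, 1762 and 403 CPM in the microbead libraries and 85.9, 51.0, 124 and 186 CPM in the sham libraries (3.20 ± 0.56, adjusted p = 0.00639, and 2.57 without microbead 2). Class II genes are also expressed by dendritic cells and monocytes. Cd209a, a lectin of monocyte-derived dendritic cells, had 38 reads in microbead 2, 0 in microbead 1 and 3, and at most 2 in any sham library. Whether those cells account for the class II values was not tested.

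Secreted signals moved both ways. Of 22 chemokines and cytokines tested 6 rose and 1 fell, with a median of 1.05. Ccl12, a ligand of Ccr2 in mice, had 362, 295 and 337 CPM in the microbead libraries and 18.9, 24.6, 95.5 and 96.0 CPM in the sham libraries (2.48 ± 0.48, adjusted p = 0.00899). Il16, a chemoattractant for T cells, fell, with 20.4, 43.4 and 46.4 CPM in the microbead libraries and 99.6, 114, 75.2 and 93.6 CPM in the sham libraries (-1.34 ± 0.28, adjusted p = 0.00328). Arg1, the arginase of alternatively activated macrophages and of some recruited monocytes, had 92, 58 and 15 reads in the microbead libraries and 0 in all 4 sham libraries, which is at least 71.5-fold higher against a floor of 3 reads over the sham group. It missed the threshold (adjusted p = 0.0558).

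Other genes changed as well. Spint1, a membrane protease inhibitor, had 161, 212 and 210 CPM in the microbead libraries and 49.8, 54.5, 81.3 and 74.4 CPM in the sham libraries (1.58 ± 0.23, adjusted p = 4.9e-05). Htra3, a secreted serine protease, had 56.6, 85.7 and 76.7 CPM in the microbead libraries and 3.44, 21.1, 30.5 and 20.4 CPM in the sham libraries (1.97 ± 0.35, adjusted p = 0.00071). Sbno2, a nuclear cofactor in interleukin-10 signalling of macrophages, rose by 1.07 ± 0.21 (adjusted p = 0.00159), and Kif3b, a kinesin motor subunit, by 1.97 ± 0.40 (adjusted p = 0.00231). These 4 are among 30 genes called both in all 7 fits without 1 APOE3 library and without microbead 1 and 2. Tspo, the mitochondrial membrane protein used as a target in imaging of microglial activation, had 179, 219 and 109 CPM in the microbead libraries and 56.7, 35.1, 56.9 and 42.0 CPM in the sham libraries (1.84 ± 0.30, adjusted p = 0.000276). Ighm, the heavy chain gene of immunoglobulin M, fell, with 97.3, 118 and 98.0 CPM in the microbead libraries and 280, 258, 240 and 291 CPM in the sham libraries (-1.35 ± 0.21, adjusted p = 0.000163). The other 13 B cell markers summed to 31.7, 89.1 and 32.1 CPM in the microbead libraries and to 68.7, 73.8, 73.2 and 58.8 CPM in the sham libraries. Over the microbead libraries Ighd had 7 reads, Ms4a1 19, Cd79b 15, Cd22 60 and Igkc 0. Over the 4 sham libraries Ighd had 33, Ms4a1 41, Cd79b 36, Cd22 45 and Igkc 0. The part of B cell RNA in the fall of Ighm was not tested. Among large falls, Snn, a small membrane protein, had 6.79, 3.34 and 1.78 CPM in the microbead libraries and 18.9, 26.4, 34.5 and 32.4 CPM in the sham libraries (-2.84 ± 0.52, adjusted p = 0.00095). A gene with 3 reads stood at 6.79, 3.34 and 5.35 CPM in microbead 1, 2 and 3. The microbead values of Snn lie at or below that level, so the size of its fall is uncertain.

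**Figure D5:**
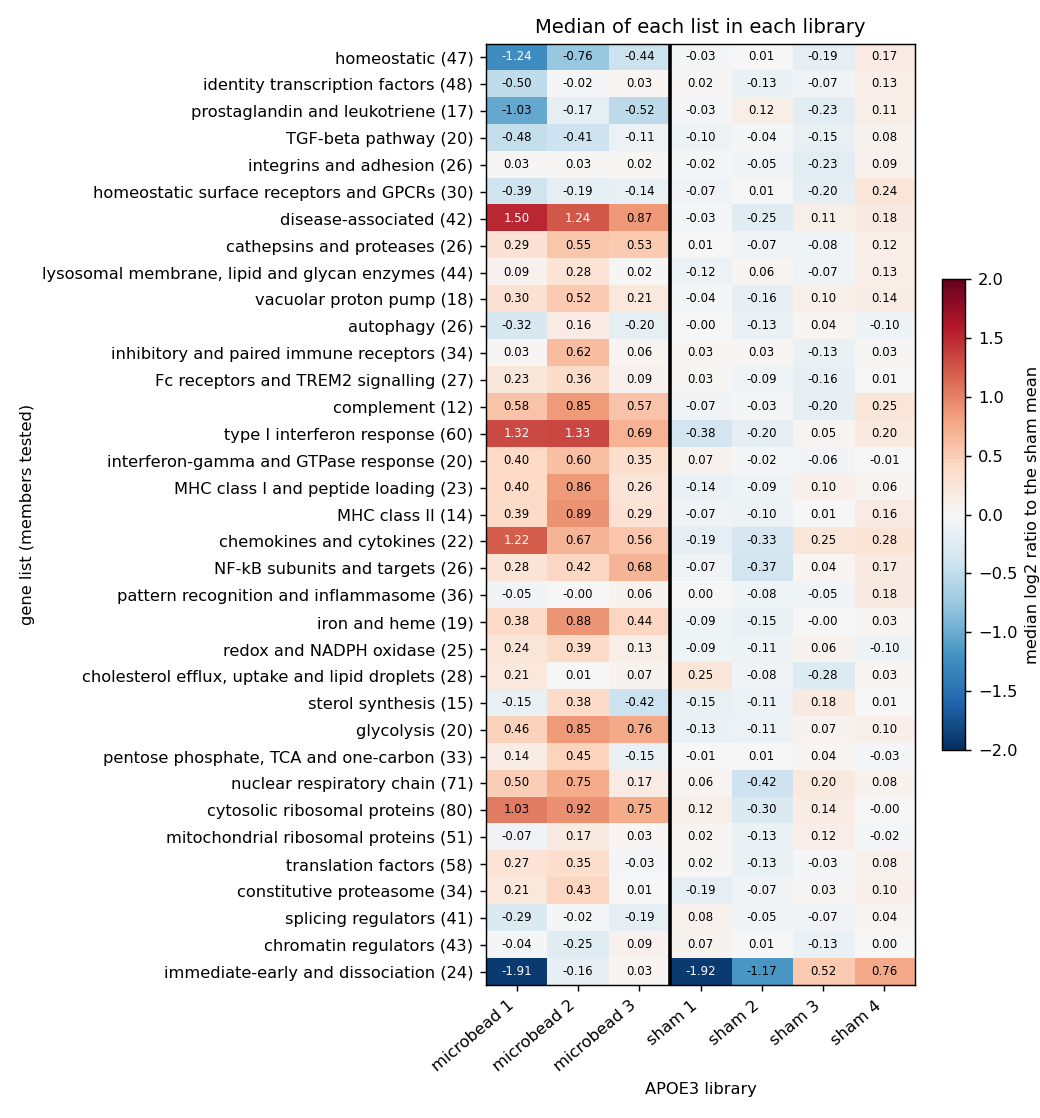
Each cell gives the median, over the tested members of a gene list, of the log2 ratio of one APOE3 library to the mean of the 4 sham libraries (log2 of CPM plus 1), with the 3 microbead libraries left of the black line and the 4 sham libraries right of it. The homeostatic list stands at -1.24, -0.76 and -0.44 in microbead 1, 2 and 3, glycolysis lies between 0.46 and 0.85, and the immediate-early list ranges over both groups.

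Immediate-early genes, which tissue dissociation is known to induce, varied widely within both groups. The 24 immediate-early genes had a median log2 ratio to the sham mean of -1.91, -0.16 and 0.03 in microbead 1, 2 and 3 and of -1.92, -1.17, 0.52 and 0.76 in sham 1 to 4, and none was called. Rod photoreceptor markers summed to 407, 1134 and 740 CPM in the microbead libraries and to 435, 594, 2909 and 1960 CPM in the sham libraries, and again sham 3 and 4 were high. With the rod marker level as a covariate 380 genes were called.

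Fewer genes, 15 against 392, were called in mice with the APOE E4/E4 genotype, whose retinas were sorted the same way after microbead (3 libraries) and sham injection (4 libraries). Of the 269 genes that rose in APOE3, 228 lay above sham in APOE4 too, with a median of 0.33 there, and of the 123 that fell 100 lay below it, with a median of -0.24. Over all genes tested, 49.5% lay above sham in APOE4. The type I interferon list had a median of 1.08 in APOE4, against 1.22 in APOE3, and the disease-associated list one of 0.34 in APOE4, against 1.34 in APOE3. Because the genes were chosen for their size in APOE3, part of that difference follows from the choice. The difference between the 2 responses itself passed the threshold for 7 of 7605 genes (0.092%), among them Capg, an actin-capping protein of macrophages. Capg had 168, 91.3 and 96.3 CPM in the APOE3 microbead libraries and 27.5, 33.4, 40.7 and 57.6 CPM in the APOE3 sham libraries (1.52 ± 0.32, adjusted p = 0.00336), against a log2 fold change of -1.19 ± 0.38 in APOE4. The log2 fold change in APOE4 was 0.95 ± 0.49 for Cst7 and -0.36 ± 0.21 for Sall1, and the difference between the genotypes did not pass the threshold for either (adjusted p = 0.541 for Cst7 and 0.357 for Sall1).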

How the data were processed

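Full-length cDNA libraries were made from sorted retinal microglia and sequenced in 14 samples. The submitters' processing notes name Salmon 1.4.0, DESeq2 1.30.1, R 4.0.3 and the mouse build mm10. The transcript annotation behind the index is not given in the sources used here. The authors deposited, per the file headers, Salmon's estimated counts, effective lengths and TPM values per transcript, and a table of TPM values per gene. TPM values are scaled for transcript length. Those per transcript were used for the length offsets and for a check of the library labels. The estimated counts were summed to genes with GENCODE M21, in which 115945 of 116945 transcripts had a gene, and rounded to whole numbers. In that check, the TPM values per transcript of each library were summed to genes. They matched that library's own column of the deposited TPM table within 1% for 99.2% to 99.4% of genes.

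Genes were tested with edgeR 4.0.16 (R 4.3.3) by the robust quasi-likelihood test with TMM scaling in 1 model over the 4 groups of 14 libraries, after filterByExpr with a minimum count of 10 and a minimum total of 15. Adjusted p-values are Benjamini-Hochberg values over 7605 genes. CPM uses the TMM-scaled library sizes. Values are per library, and errors of fold changes are SE from the fit. The genes named are those with the smallest p or largest change, up to 5 members of each list by p, the sort and state markers, and those that kept their call under the exclusions described. Arsb, Ccl12, Cd52, Csf1r, Ctsh, Ifi213, Maf, Pld3, Trem2, Tspo and Zfp280d were added after their values were seen. The gene lists and this choice of samples were made with earlier results of these data known. Promoter sequences come from RefSeq (GRCm38.p6). Alternatives used DESeq2 1.42.0, limma 3.58.1, other scalings, filters and libraries left out. The test was checked on simulated counts.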

Additional observations from a re-analysis of the deposited data

Results flagged for a closer look

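The microbead effect differed between the genotypes for 7 genes, by edgeR's test of the difference with adjusted p between 0.0155 and 0.0367. The difference, APOE4 minus APOE3 on the log2 scale, was 2.12 ± 0.41 for Atp8a2, 1.91 ± 0.33 for Serpine2, 2.59 ± 0.50 for Hpgd and 1.80 ± 0.36 for Gpr34, all of which fell in APOE3. It was -3.64 ± 0.64 for Fgr and -2.72 ± 0.50 for Capg, which rose in APOE3. For Zfp280d it was -2.12 ± 0.39, with a log2 fold change of -2.11 in APOE4 and 0.01 in APOE3. Cd244a had 22.3 CPM in sham 1, far above the other 3 sham libraries by Dixon's test, which flags about 1 in 20 groups by chance.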

How the results depend on the processing

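Against 392 genes called in APOE3, 149 were called with library totals as the scaling, 222 with length offsets, 33 with limma on log2(TPM + 1) (29 higher, 87.9% against 68.6%), 227 with only the 7 APOE3 libraries, 37 without microbead 1 and 2, and 4 with the monocyte marker covariate. Leaving out 1 library gave 225 to 478. Against 7 genes whose effect differed between genotypes, 57 were called by DESeq2, 0 by limma-voom, 2 with library totals, 0 with length offsets, 1 on log2(TPM + 1), 29 with no filter, 3 with the replicate block, 1 without APOE3 microbead 1 and 2, and 0 with the monocyte marker covariate, and 0 to 30 with 1 library left out. At an unadjusted p under 0.05 that difference held for 621 genes. Its median over all genes was -0.21 with library totals and -0.35 on log2(TPM + 1). The cause was not tested. The replicate block gave 293 calls in APOE3. In their deviations from the group means, same-numbered libraries had correlations of 0.099, -0.144 and 0.008, and differently numbered ones between -0.206 and 0.255. With so few libraries these values cannot decide whether the numbers pair retinas.

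Of the 392 genes called, Smpdl3a (-0.70) and Hspa8 (-0.053) turned sign without microbead 1 and 2, and Hspa8 also with the monocyte marker covariate (-0.15). Of the 7 fits without 1 APOE3 library, Smpdl3a lost its call in 6 and Hspa8 in 5. The other sign changes given here are of genes not called in APOE3. Fcrls, at 0.00, was at -0.0092 by DESeq2, -0.01 with RLE size factors, -0.0081 with a minimum count of 30, -0.024 with the 7 APOE3 libraries, -0.028 without microbead 1 and 2, and between -0.19 and 0.15 with 1 library left out. Without microbead 1 and 2, Cd22 was at -0.35, Clec7a at -0.11, Mrc1 at -3.25 and Trem2 at 0.086. With the monocyte marker covariate, Csf1r was at 0.28, Dbi at -0.048, Glul at 0.47, Mrc1 at -1.45 and Trem2 at 0.30. Zfp280d in APOE3, at 0.01, was at -0.080 by limma-voom, -0.080 with library totals, -0.0019 with the 7 APOE3 libraries, -0.074 with the replicate block, -0.015 with the rod marker covariate, and between -0.18 and 0.33 with 1 library left out. Cd22 lay between -0.61 and 0.95 with 1 library left out. Over the named genes and settings, 2025 comparisons kept direction and side of the threshold, 226 lost the call, 22 gained it and 37 changed sign. Low depth outside satellite transcripts limits genes with few reads.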
